A study of Mus musculus with 20 samples.

Results

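The 10 genes described here code for the vasopressin V2 receptor (*Avpr2*), 3 adenylyl cyclases (*Adcy3*, *Adcy5* and *Adcy6*), 4 cyclic nucleotide phosphodiesterases (*Pde1a*, *Pde3a*, *Pde3b* and *Pde4c*) and 2 subunits of protein kinase A (*Prkaca* and *Prkar1a*). They were chosen by name, as the receptor and the enzymes that make, break down and read cAMP, and all 10 are among the 24411 genes of the count table. The kidneys came from 20 mice at P125 in 4 groups of 5, and single mice are named by group and number, with MC and MM for control and mutant males and FC and FM for control and mutant females. Mutants were *Pkd2* fl/fl; *Pax8* rtTA; *TetO* Cre on a C57BL/6 background, and controls were *Pkd2* fl/fl littermates without 1 of the 2 transgenes. All 20 mice, controls included, received doxycycline at 50 mg per kg from P27 to P29. The *Pax8* promoter directs the rtTA to tubule cells, and recombination by cell type was not measured in these data. There were 3 litters, written A, B and C. The kidney to body weight ratio (KBW, in percent) ran from 1.22 to 2.15 in male mutants, from 0.836 to 1.46 in female mutants and from 0.555 to 0.896 in controls.

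Vasopressin binds the V2 receptor on the basolateral side of collecting duct principal cells and thick ascending limb cells. The receptor acts through the stimulatory G protein on adenylyl cyclases, which make cAMP from ATP, and phosphodiesterases hydrolyze cAMP to AMP. Protein kinase A is held inactive by its regulatory subunits until they bind cAMP, and its catalytic subunits then phosphorylate targets such as the water channel aquaporin-2. In polycystic kidneys cAMP is known as a driver of fluid secretion and of the proliferation of cyst-lining cells, and blockade of the V2 receptor is an approved treatment. PDE4C is known to lie with polycystin-2 and adenylyl cyclases in an A-kinase anchoring complex of the primary cilium, and its gene is known as a target of the transcription factor HNF-1β.

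RefSeq promoter windows on GRCm38.p6, each of 250 bases before to 50 bases after a start, were at hand for 7 of the 10 genes, 17 windows in all, and for none of *Adcy6*, *Pde3a* and *Pde3b*. The 250 bases before a RefSeq start of *Pde4c* are shown because *Pde4c* had the largest log2 fold change of the 10 in both sexes together. They lie at chr8:70723814-70724063 on the plus strand, inside the GENCODE M21 span of the gene (chr8:70723720-70751186) and not upstream of it. They overlap no GENCODE M21 exon of another gene on that strand. Capitals mark the letters ATTAAC, the reverse complement of the HNF1 core GTTAAT, 124 bases before that RefSeq start, at chr8:70723940-70723945. GTTAAT was found on either strand in 7.10% of 32851 mouse promoter windows and in 2 of the 17, that of *Pde4c* and 1 of *Prkar1a*. The second sequence is 30 bases of a *Prkar1a* promoter at chr11:109650889-109650918, shown because its capitals mark the only full cAMP response element (TGACGTCA, at chr11:109650900-109650907) in the 17 windows, of which 2 overlapping ones hold it.
Pde4c: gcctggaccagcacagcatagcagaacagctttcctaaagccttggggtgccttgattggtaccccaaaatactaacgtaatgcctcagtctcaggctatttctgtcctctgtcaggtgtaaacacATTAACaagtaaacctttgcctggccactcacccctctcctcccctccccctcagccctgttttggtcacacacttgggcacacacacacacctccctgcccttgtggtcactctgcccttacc
Prkar1a: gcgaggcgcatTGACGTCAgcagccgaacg
The full element was in 1.79% of all windows, and the shorter core TGACG, which the full element contains, was in 20.8% of all windows and in 5 of the 17. A match is a description of the letters and not of a bound site.

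Levels are given in CPM, the count of a gene divided by the TMM-adjusted library size and scaled to a common total, and totals ran from 11307741 to 19324073 counts per mouse. The targeted gene was checked first. *Pkd2* had a mean of 291 ± 31.1 CPM (SD, n = 5) in male controls, 119 ± 9.87 in male mutants, 257 ± 49.1 in female controls and 145 ± 33.6 in female mutants, and no mutant overlapped a control of its sex. *Pkd2* fell in males (log2 fold change −1.32, edgeR adjusted p = 2.2e-05) and in both sexes together, and in females the log2 fold change of −0.80 missed the threshold (edgeR adjusted p = 0.028). Library FM4 stood apart, with 14850 genes detected against 16776 to 17724 in the other mice, and it was also the mutant of lowest KBW.

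Per kilobase of exon, the regulatory subunit *Prkar1a* had the highest level of the 10 in every group, from 67.9 CPM per kb in male controls to 85.4 in female mutants. In male controls it was followed by *Prkaca* (30.1 CPM per kb), *Adcy6* (24.3), *Pde4c* (19.4), *Pde1a* (14.3), *Avpr2* (6.51) and *Pde3b* (2.24). *Adcy5* (0.706), *Adcy3* (0.407) and *Pde3a* (0.247) had the lowest levels per kb there, and only the last pair of neighbors in this order overlapped between mice. In female controls *Adcy6* had rank 2 at 36.6 CPM per kb and *Prkaca* rank 3 at 29.1, and there *Pde4c* (18.2) and *Pde1a* (17.7) also overlapped. *Pde4c* had rank 4 in both control groups and rank 5 in both mutant groups, behind *Pde1a*, at 11.0 CPM per kb in male mutants and 11.3 in female mutants. The mutants of *Pde4c* and *Pde1a* overlapped in both sexes, and in females those of *Pde4c* and *Avpr2* did too, so their order in mutants is not beyond the spread between mice. For *Avpr2*, exons of another gene on the other strand cover 81.3% of the exonic bases. Its value per kb, and so its rank, may depend on whether the counting used strand, which is not given. The plot of the 10 genes by mouse shows the levels in CPM.

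**Figure D1:**
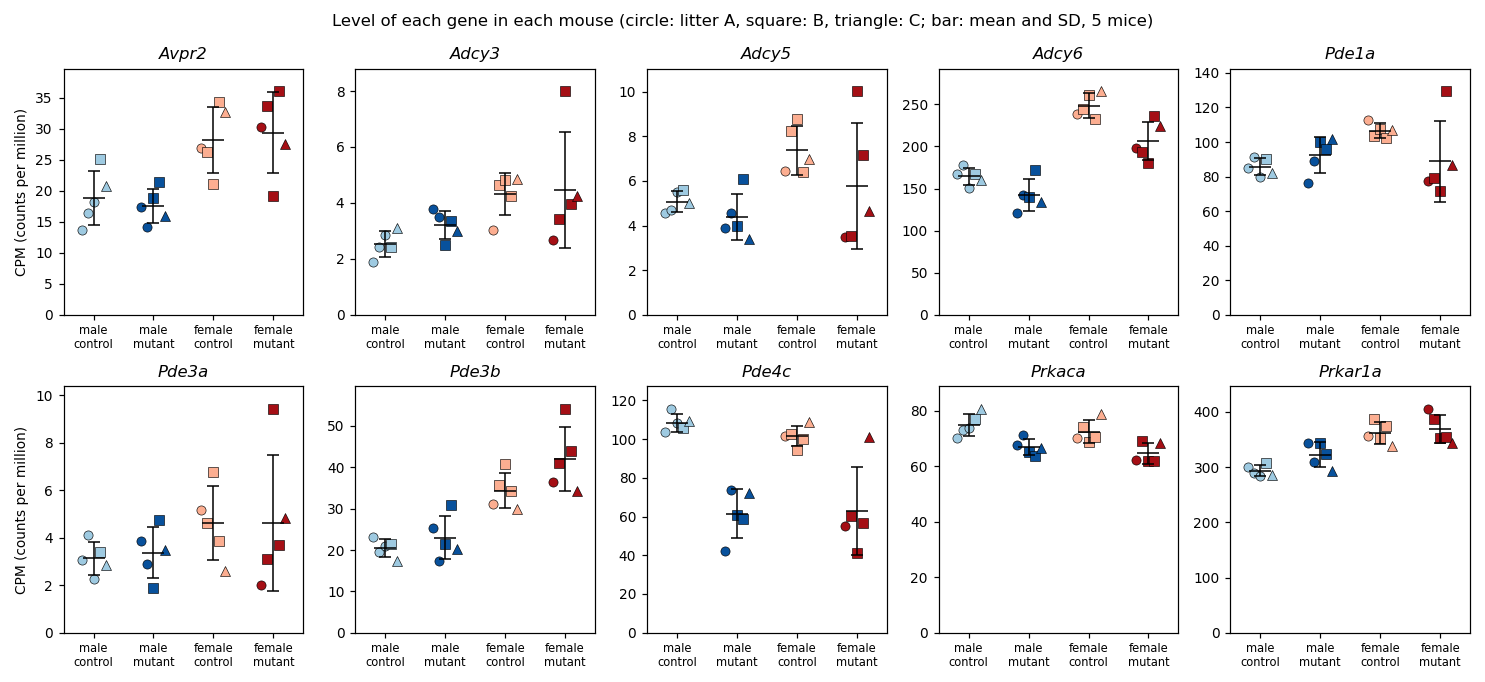
CPM of each of the 10 genes (y axes, from 0) in each of the 20 mice, in 4 groups of 5 (x axes), with the marker shape giving the litter and the bars the mean and SD. All 5 male mutants lay below all male controls for *Pde4c*, and 4 of 5 female mutants lay below all female controls.

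*Pde4c* (chr8:70723720-70751186, plus strand), the gene of a cAMP-specific phosphodiesterase, was lower in mutants of both sexes. Male controls had 104, 116, 108, 106 and 109 CPM, and male mutants had 42.1, 74.0, 60.6, 58.7 and 72.2. Female controls had 102, 103, 94.4, 100.2 and 109 CPM, and female mutants had 55.2, 60.2, 41.3, 56.6 and 101. The male groups did not overlap, and in females only FM5 lay within the range of the controls. In males *Pde4c* fell by 0.83 on the log2 scale (SE 0.127, edgeR quasi-likelihood test with Benjamini-Hochberg adjustment over 14010 genes, adjusted p = 0.0018). In females the log2 fold change was −0.72 (SE 0.138, edgeR adjusted p = 0.019), which did not pass the threshold of 0.01. In both sexes together *Pde4c* fell to 0.583 of the control level (log2 fold change −0.78, SE 0.102, edgeR adjusted p = 3.5e-05), and 9 of 10 mutants lay below every control.

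The difference of *Pde4c* was below 0 in each of the 6 strata of sex and litter. In litters A, B and C it was −0.97, −0.82 and −0.60 in males and −0.88, −0.93 and −0.10 in females, on the log2 CPM scale. The smallest, in females of litter C, compares FM5 with a single control, FC5. The call in males was lost without MC4 (log2 fold change −0.83, edgeR adjusted p = 0.016), which was alone in litter B among the male controls, and without it 1.32% of all genes were called in place of 8.46%. The difference in females passed the threshold with all 20 mice in 1 fit (log2 fold change −0.74, edgeR adjusted p = 0.0041).

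Among the 10 genes, 1 was called at an edgeR adjusted p under 0.01 in males (*Pde4c*), against 8.46% of all genes tested. In females none of the 10 was called, against 0.637% of all genes, and 3 of the 10 and 20.6% of all genes had an unadjusted p under 0.05. DESeq2's Wald test called 1 of the 10 in females, *Pde4c*, and 6.22% of all genes. In both sexes together 2 were called, *Pde4c* and *Adcy6*, against 15.9% of all genes, and both were lower in mutants, against 5.86% of all genes called and lower. Mutants and controls did not overlap for 1 of the 10 in males, against 15.3% of all genes (6.56% with mutants lower), and for none of the 10 in females, against 7.06% (3.33% with mutants lower). The median log2 fold change of the 10 in both sexes together was −0.077, and that of all genes tested was −0.012. In whole kidney tissue, fewer cells of a type and less RNA per cell cannot be told apart.

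**Figure D2:**
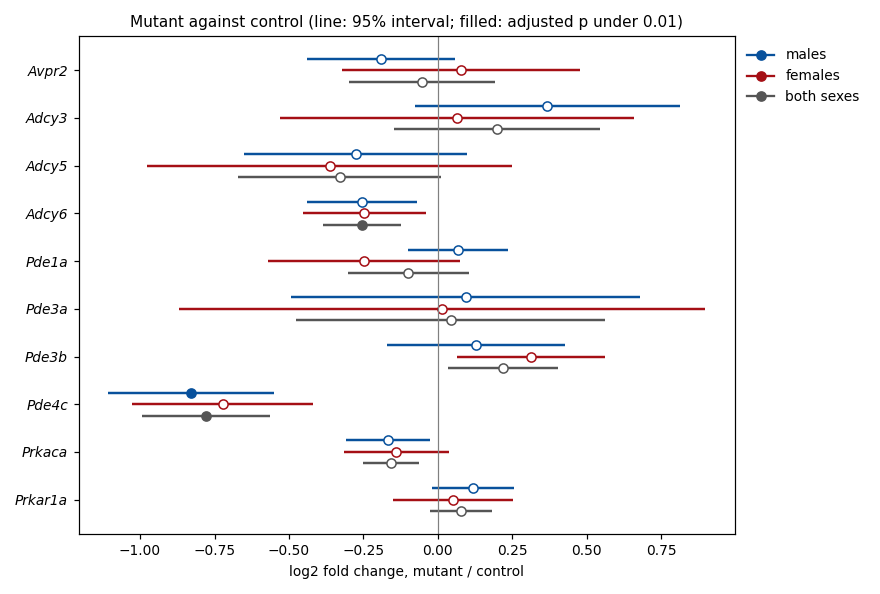
Log2 fold change of mutants against controls (x axis) for each of the 10 genes (y axis) in males, females and both sexes together, with 95% intervals as lines and filled points where the edgeR adjusted p was under 0.01. *Pde4c* lies at −0.83, −0.72 and −0.78, and *Adcy6* at −0.25 in each.

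*Adcy6* (chr15:98589973-98610076, minus strand) codes for adenylyl cyclase 6, a calcium-inhibited enzyme that is a main source of vasopressin-stimulated cAMP in the collecting duct. It had 167, 178, 150.2, 168 and 159.8 CPM in male controls and 121, 143, 140.4, 172 and 134 in male mutants. Female controls had 238, 244, 261, 233 and 266 CPM, and female mutants had 199, 193, 181, 236 and 224. In each sex 4 of 5 mutants lay below all controls, and the mutant with the highest level, MM4 or FM4, lay inside the range of the controls. In both sexes together *Adcy6* fell to 0.838 of the control level (log2 fold change −0.25, SE 0.063, edgeR adjusted p = 0.0055). The log2 fold change was −0.25 in males (SE 0.084, edgeR adjusted p = 0.053) and −0.25 in females (SE 0.094, edgeR adjusted p = 0.16), neither of which passed the threshold. The difference was below 0 in all 6 strata of sex and litter, from −0.11 to −0.32 on the log2 CPM scale. The call in both sexes together lay close to the threshold: it was lost without any of MC1, MC2, MM1, MM3, MM5, FC1, FC2, FC3, FM1 and FM2, at edgeR adjusted p-values from 0.0102 to 0.0123. Exons of *Gm29331* on the other strand overlap 8.92% of the exonic bases of *Adcy6*, and whether the counting used strand is not given.

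The other cyclases had low counts. *Adcy5* (chr16:35154877-35305738, plus strand), also a calcium-inhibited cyclase, had 59 to 198 counts per mouse and means of 5.07 ± 0.468 CPM (SD, n = 5) in male controls, 4.39 ± 1.03 in male mutants, 7.37 ± 1.09 in female controls and 5.77 ± 2.81 in female mutants. Its log2 fold change in both sexes together was −0.33 (SE 0.162, edgeR adjusted p = 0.15), with a difference below 0 in 6 of 6 strata, and it was not called. FM3, at 10.0 CPM, had the highest *Adcy5* level of all 20 mice. *Adcy3* (chr12:4133103-4213525, plus strand), a cyclase known from primary cilia, had 26 to 158 counts per mouse and means of 2.54 ± 0.456 CPM in male controls, 3.23 ± 0.50 in male mutants, 4.32 ± 0.762 in female controls and 4.46 ± 2.07 in female mutants. Its log2 fold change in both sexes was 0.20 (SE 0.165, edgeR adjusted p = 0.41). Of the exonic bases of *Adcy3*, 22.1% overlap exons of *Cenpo* on the other strand, and whether the counting used strand is not given in the sources used here.

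*Avpr2* (chrX:73892102-73895502, plus strand), the V2 receptor gene itself, showed no called difference between mutants and controls. Male controls had 13.6, 16.4, 18.2, 25.1 and 20.7 CPM, and male mutants had 17.3, 14.2, 18.8, 21.4 and 16.0. Female controls had 26.8, 26.3, 21.1, 34.3 and 32.6 CPM, and female mutants had 30.3, 33.6, 19.1, 36.1 and 27.6. The groups overlapped in both sexes. The log2 fold change in both sexes together was −0.05 with a 95% interval from −0.30 to 0.19 (edgeR adjusted p = 0.78). In males it was −0.19 (interval −0.44 to 0.06) and in females 0.08 (interval −0.32 to 0.48). Exons of *Arhgap4* on the other strand cover 81.3% of the exonic bases of *Avpr2*, so without strand the reads of the 2 genes cannot be told apart over that stretch. *Arhgap4* had means of 6.47 CPM in male controls, 6.41 in male mutants, 8.61 in female controls and 10.4 in female mutants.

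The other phosphodiesterase genes showed no called difference between mutants and controls. *Pde3b* (chr7:114415281-114539251, plus strand), of a cGMP-inhibited family, had 23.1, 19.4, 20.9, 21.4 and 17.4 CPM in male controls and 25.3, 17.2, 21.4, 31.0 and 20.2 in male mutants. Female controls had 31.2, 35.6, 40.7, 34.4 and 29.9 CPM, and female mutants had 36.6, 41.1, 54.1, 43.9 and 34.4. Its direction was opposite to that of *Pde4c*, at a log2 fold change of 0.22 in both sexes together (SE 0.088, edgeR adjusted p = 0.074) and 0.31 in females (SE 0.112, edgeR adjusted p = 0.14), with overlapping groups in both sexes and a difference above 0 in 5 of 6 strata. *Pde3a* (chr6:141249269-141507448, plus strand), of the same family, had group means between 3.14 and 4.62 CPM and a log2 fold change in both sexes of 0.04 (interval −0.48 to 0.56, edgeR adjusted p = 0.92). An antisense gene, *Gm28523*, overlaps 5.82% of its exonic bases.

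*Pde1a* (chr2:79834453-80129458, minus strand) codes for a phosphodiesterase activated by calcium and calmodulin. Female controls had 113, 103, 108, 102 and 107 CPM, and female mutants had 77.2, 79.2, 71.9, 129.6 and 86.5. In females 4 of 5 mutants lay below all controls and the fifth, FM4, lay above them all. Male controls had 85.1, 91.5, 79.9, 90.3 and 82.2 CPM, and male mutants had 76.6, 88.7, 99.8, 96.2 and 102, with 3 of 5 mutants above all controls and 1 below them. The log2 fold change was −0.25 in females (SE 0.146, edgeR adjusted p = 0.38) and 0.07 in males (SE 0.077, edgeR adjusted p = 0.58). Without FM4, the library with fewer genes detected, *Pde1a* fell in females by 0.42 on the log2 scale (edgeR adjusted p = 0.0084), and 866 of 14595 genes were then called in place of 92 of 14439.

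Neither of the protein kinase A genes was called between mutants and controls. *Prkaca* (chr8:83972993-83996443, plus strand), the gene of the catalytic subunit alpha, had 70.1, 73.0, 73.7, 77.0 and 80.7 CPM in male controls and 67.7, 71.3, 65.1, 63.7 and 66.4 in male mutants. In females it had 70.2, 74.0, 68.6, 70.6 and 78.9 CPM in controls and 62.2, 69.1, 61.7, 62.0 and 68.5 in mutants. In each sex 4 of 5 mutants lay below all controls of that sex, and the differences were below 0 in 6 of 6 strata. The log2 fold change in both sexes together was −0.16 (SE 0.044, edgeR adjusted p = 0.013), just outside the threshold. DESeq2's Wald test called *Prkaca* (adjusted p = 0.0013), beside 18% of all genes, against 15.9% in edgeR. With no litter term, without MM2 and without FM2 edgeR called it too (adjusted p = 0.0086, 0.0093 and 0.0087). These calls stood beside 16.5%, 16.6% and 14.3% of all genes. *Prkar1a* (chr11:109649405-109669656, plus strand), of regulatory subunit type I alpha, had means of 294 ± 9.88 CPM (SD, n = 5) in male controls, 322 ± 22.2 in male mutants, 362 ± 19.6 in female controls and 369 ± 26.1 in female mutants. Its log2 fold change in both sexes was 0.08 (SE 0.050, edgeR adjusted p = 0.27).

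The effect of *Pkd2* loss was compared between the sexes with the sex-by-genotype term. None of the 10 genes was called for this term by edgeR, none had an unadjusted p under 0.05, and DESeq2's Wald test also called none. Of all genes tested, 0% were called by edgeR and 0.0908% by DESeq2, and 4.17% had an unadjusted p under 0.05 in edgeR. For *Pde4c* the male effect minus the female effect was −0.08 on the log2 scale (95% interval −0.52 to 0.37), and for *Adcy6* it was 0.02 (interval −0.25 to 0.29). The difference for *Pde1a* was 0.34 (interval −0.05 to 0.73, unadjusted p = 0.081 in edgeR, adjusted p = 1). These intervals do not show that the effects were alike.

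Males and females were then compared within each genotype. In controls, males had lower levels of *Pde3b* (log2 fold change −0.66, SE 0.093, edgeR adjusted p = 0.00026), *Adcy6* (−0.55, SE 0.076, edgeR adjusted p = 0.00021) and *Pde1a* (−0.28, SE 0.070, edgeR adjusted p = 0.0098). These 3 of 10 stand against 17.8% of all genes called, and against 9.02% called and lower in males. All male controls lay below all female controls for each of the 3, and also for *Adcy5* and *Prkar1a*, which edgeR did not call (edgeR adjusted p = 0.052 and 0.016). DESeq2's Wald test called *Prkar1a* (adjusted p = 0.0045), beside 19.7% of all genes. Of all genes tested, 23.9% did not overlap between male and female controls and 14.2% did not overlap and were lower in males. *Avpr2* had a log2 fold change of −0.44 in controls (SE 0.158, edgeR adjusted p = 0.053) and *Adcy3* of −0.58 (SE 0.188, edgeR adjusted p = 0.035). *Pde4c* (0.12) and *Prkaca* (0.11) were the only 2 of the 10 with a value above 0 in controls, and neither was called. The median log2 fold change, males against females, was −0.42 for the 10 genes and −0.01 for all genes tested. The call of *Pde1a* was lost without any 1 of the 10 control mice, at edgeR adjusted p-values from 0.0105 to 0.0940.

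In mutants the sex difference of *Pde3b* was called (log2 fold change −0.79, SE 0.152, edgeR adjusted p = 0.0074), 1 of the 10 genes against 5.42% of all genes. That of *Adcy6* (−0.50, SE 0.118, edgeR adjusted p = 0.019) and that of *Avpr2* (−0.70, SE 0.170, edgeR adjusted p = 0.021) were not called, although no male mutant overlapped a female mutant for *Adcy6*. The mutants of the 2 sexes did not overlap for 3 of the 10, *Adcy6*, *Pde3b* and *Prkar1a*, all lower in males, against 13.3% of all genes (5.33% lower in males). The male difference from females was below 0 in all 6 strata of genotype and litter for *Avpr2*, *Adcy6*, *Pde3b* and *Prkar1a*. *Arhgap4*, the gene opposite *Avpr2*, also had lower values in males, at −0.35 in controls and −0.75 in mutants (edgeR adjusted p = 0.040 and 0.031), and its part in the *Avpr2* values was not tested. The call of *Pde3b* in mutants was lost without any of MM2, MM3, MM4, MM5, FM1, FM2 and FM5, at edgeR adjusted p-values up to 0.0425. Without FM3, all 3 of *Avpr2*, *Adcy6* and *Pde3b* were called, against 6.84% of all genes.

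**Figure D3:**
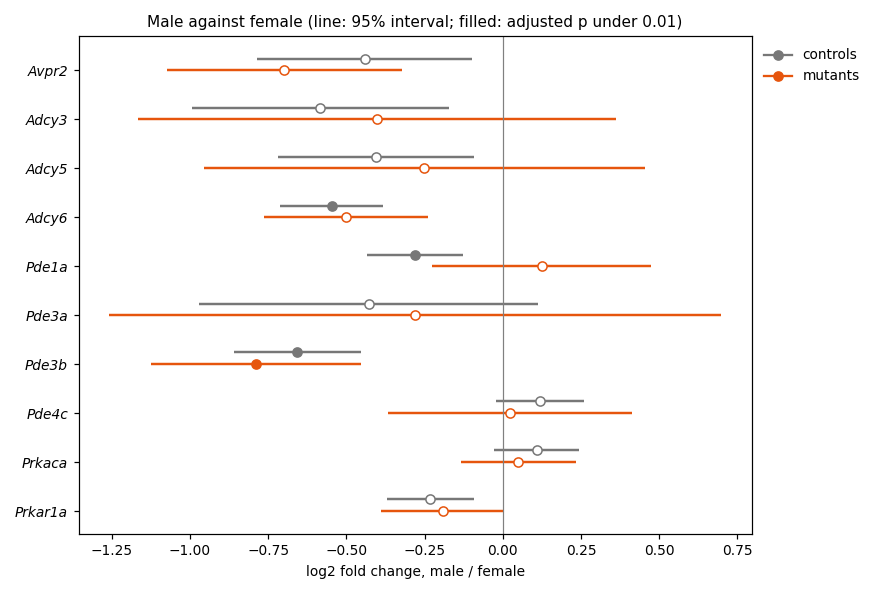
Log2 fold change of males against females (x axis) for each of the 10 genes (y axis) in controls and in mutants, with 95% intervals as lines and filled points where the edgeR adjusted p was under 0.01. *Adcy6*, *Pde1a* and *Pde3b* are filled in controls and *Pde3b* in mutants, all below 0.

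Levels were related to KBW in the 10 mutants, with sex as a covariate because both KBW and several of these genes differed by sex. No gene of the 10 was called for the slope by edgeR, and 0% of all 14416 genes tested were, while 3 of the 10 and 22.3% of all genes had an unadjusted p under 0.05. DESeq2's Wald test also called none of the 10, against 4.03% of all genes. The 3 with an unadjusted p under 0.05 were *Pde4c*, with a slope of −0.96 on the log2 scale per percentage point of KBW (SE 0.324, edgeR adjusted p = 0.12), *Pde1a* with −0.62 (SE 0.237, edgeR adjusted p = 0.15) and *Adcy6* with −0.45 (SE 0.169, edgeR adjusted p = 0.15). With single mice left out, the slope of *Pde4c* lay between −1.23 (without FM4) and −0.71 (without FM5), that of *Adcy6* between −0.65 and −0.35, and that of *Pde1a* between −0.97 (without MM2) and −0.28 (without FM4). With no covariate for sex the slopes were −0.51 for *Pde4c*, −0.24 for *Pde1a* and −0.73 for *Adcy6*, and none was called.

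Because male and female mutants formed separate sets for *Adcy6*, its correlation was taken after centering log2 CPM and KBW on sex. Pearson's r was then −0.742 (exact permutation within sex, two-sided p = 0.027, adjusted p = 0.16 over all genes) and Spearman's rho was −0.755 (exact permutation p = 0.024, adjusted p = 0.23). Without MM1 and FM4, the mice with the highest and the lowest KBW, r was −0.479 (exact permutation p = 0.27), so without those 2 mice a relation centered on sex was not shown in the 8 that remained, although r kept its sign. For *Pde4c* the centered r was −0.660 (exact permutation p = 0.039, adjusted p = 0.19), rho was −0.630 (exact permutation p = 0.068, adjusted p = 0.31) and r without the same 2 mice was −0.699 (exact permutation p = 0.035). For *Pde1a* the centered r was −0.634 (exact permutation p = 0.033, adjusted p = 0.18), rho was −0.538 (exact permutation p = 0.13, adjusted p = 0.41), and r without the 2 mice was −0.014 (exact permutation p = 0.97). None of the 10 genes passed the adjusted threshold in any of these correlations, and 0 of all 14416 genes tested did. For the 8 mice only 576 relabellings within sex exist, so an adjusted p under 0.01 was hardly reachable there. No conclusion is drawn from the threshold in that setting. The 14400 relabellings of the 10 mutants also bound p from below, so a call there needs many genes at the smallest p together. Of the 5 female mutants, FM3, with the highest KBW among them, had the lowest level of *Adcy6*, *Avpr2*, *Pde1a*, *Pde4c*, *Prkaca* and *Pkd2* and the highest level of *Adcy3*, *Adcy5*, *Pde3a* and *Pde3b*. FM5 had a KBW of 1.00 and a *Pde4c* level within that of the controls, while FM4, with the lowest KBW of 0.836, had a *Pde4c* level of 56.6 CPM.

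**Figure D4:**
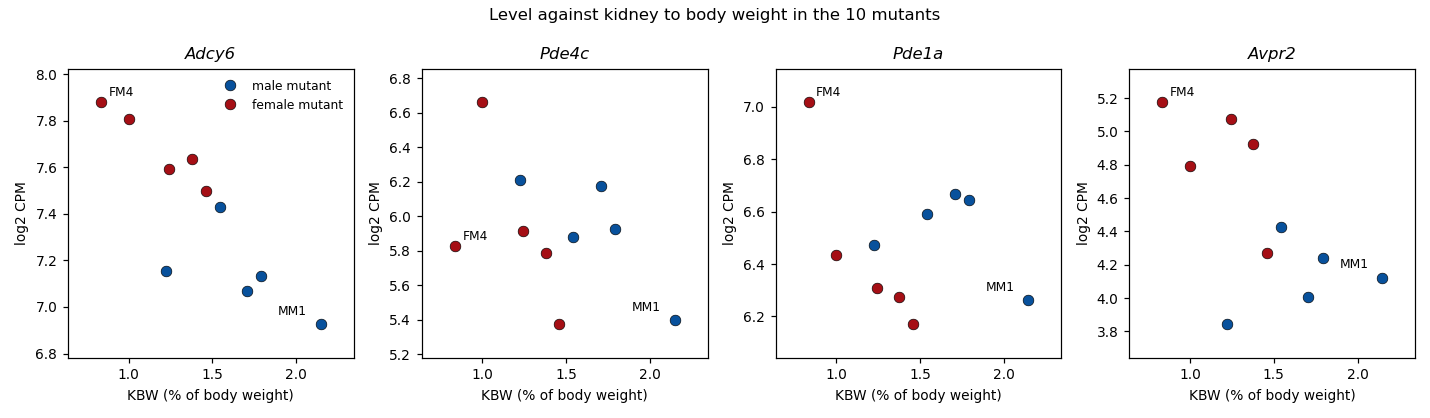
Log2 CPM (y axes) of *Adcy6*, *Pde4c*, *Pde1a* and *Avpr2* against KBW in percent of body weight (x axes) in the 10 mutants, each point a mouse, colored by sex, with FM4 (lowest KBW) and MM1 (highest) marked. For *Adcy6* all females lie above all males, and for *Pde1a* FM4 stands far above the other mice.

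The genes most like each of the 10 were listed by Pearson's r of log2 CPM over the 20 mice, which share the group and sex differences above, so these values carry no test. *Pde4c* was most like *Tlcd1* (r = 0.954), *Acp6* (0.951) and *Map4k2* (0.949). *Adcy6* was most like *Marcksl1-ps4* (0.960), *Epb4.1l4b* (0.949) and *Acot3* (0.946), and *Pde3b* was most like *Ltbp3* (0.955), *Setd7* (0.943) and *Twsg1* (0.942). *Avpr2* was most like *Il17f* (0.893), *Il17re* (0.892) and *Stk39* (0.885), and the gene most like *Pde3a* was *Pkd1* (0.919). For *Adcy5*, *Myh11*, a smooth muscle gene, was second at 0.838, behind *Anxa11* at 0.847. Among the 10 genes themselves the highest r were those of *Pde3b* with *Prkar1a* (0.793), *Pde4c* with *Prkaca* (0.787) and *Avpr2* with *Adcy6* (0.726), and *Pde3b* and *Prkaca* had the lowest (−0.531).

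Of 66 other genes of cAMP signaling, 57 were tested in both sexes together, and 5 rose, 6 fell and 46 were not called in mutants, beside 15.9% of all genes called and 5.86% called and lower. Their median log2 fold change was −0.06. Among the cyclases *Adcy7* rose (log2 fold change 0.85, edgeR adjusted p = 0.00042) and *Adcy1*, a calcium-stimulated cyclase, fell (−0.58, edgeR adjusted p = 5.8e-05), from a mean of 27.4 to 18.7 CPM in males and from 31.3 to 20.9 CPM in females. Of 11 tested phosphodiesterases beside the 4 above, *Pde1b* (−0.52, edgeR adjusted p = 0.0037) and *Pde8a* (−0.33, edgeR adjusted p = 0.0091) fell and none rose. *Pkia*, which codes for a peptide inhibitor of the protein kinase A catalytic subunit, rose (0.44, edgeR adjusted p = 1.1e-05), from a mean of 46.1 to 62.2 CPM in males and from 40.4 to 53.9 in females.

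The scaffold *Akap12* rose (1.22, edgeR adjusted p = 0.00065), 1 of 9 tested A-kinase anchoring proteins, as did *Gnai2* (0.38, edgeR adjusted p = 0.0014), which codes for an inhibitory G protein subunit. Of 12 tested receptors, the calcitonin receptor *Calcr* rose (1.99, edgeR adjusted p = 7.4e-05), from a low mean of 0.687 to 2.93 CPM in males and from 0.916 to 3.21 CPM in females. The glucagon receptor *Gcgr* (−1.09, edgeR adjusted p = 1.9e-05), the vasopressin V1a receptor *Avpr1a* (−0.77, edgeR adjusted p = 1.9e-05) and the calcium-sensing receptor *Casr* (−0.80, edgeR adjusted p = 0.0032) fell. None of 9 tested effectors and exporters of cAMP was called. In males alone 3 of 57 rose and 4 fell, beside 8.46% of all genes called. In females none of 61 was called by edgeR, beside 0.637% of all genes.

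**Figure D5:**
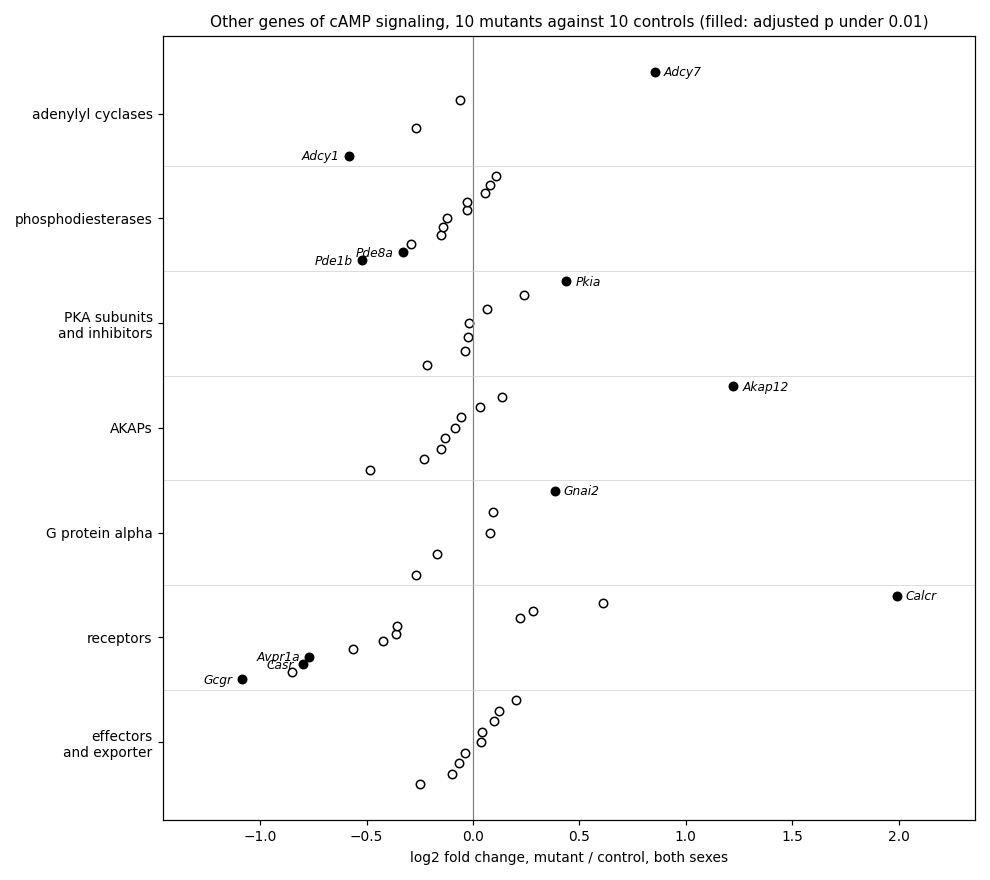
Log2 fold change of mutants against controls in both sexes together (x axis) for the 57 tested other genes of cAMP signaling, by role (y axis), each point a gene and filled points named where the edgeR adjusted p was under 0.01. *Calcr* lies highest at 1.99 and *Gcgr* lowest at −1.09.

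Marker genes of nephron segments and other cells moved with the same comparison. Of all genes tested in both sexes together, 15.9% were called and 5.86% were called and lower in mutants. Of 6 thick ascending limb markers 5 fell in both sexes together, and their summed level ran from 7696 to 8348 CPM in male controls and 4873 to 6008 in male mutants, and from 10920 to 11731 in female controls and 5282 to 7999 in female mutants. All 4 distal convoluted tubule markers fell, with summed levels of 1312 to 1710 CPM in male controls, 457 to 1011 in male mutants, 1983 to 2450 in female controls and 680 to 1202 in female mutants. Of 9 principal cell markers *Aqp3*, *Scnn1g* and *Tfcp2l1* fell and the other 6, *Aqp2* among them (log2 fold change 0.10, edgeR adjusted p = 0.67), were not called. Their sums were 986 to 1203 CPM in male controls, 863 to 1023 in male mutants, 1375 to 1585 in female controls and 1088 to 1465 in female mutants. None of the markers of these 3 segments was at 0 in any group. Of 7 proximal tubule markers none was called by edgeR, and their sums ran from 11210 to 12005 CPM in male controls, from 7983 to 12342 in male mutants, from 8174 to 8918 in female controls and from 5351 to 10128 in female mutants.

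All 6 macrophage markers rose in mutants of both sexes together, against 15.9% of all genes called in either direction. Their sums were 99.2 to 111 CPM in male controls, 145 to 343 in male mutants, 127 to 163 in female controls and 131 to 463 in female mutants. Of 7 smooth muscle and myofibroblast markers *Acta2* and *Tagln* rose and *Myh11* fell, and of 5 endothelial markers none was called in both sexes together. The part of these markers in the levels of *Pde4c*, *Adcy6* and the other cAMP genes was not tested. In controls, 5 of 6 thick ascending limb, 2 of 4 distal convoluted tubule, 4 of 9 principal cell, 5 of 5 endothelial, 3 of 7 smooth muscle and myofibroblast and 2 of 6 macrophage markers were lower in males, against 9.02% of all genes called and lower. There 3 of 7 proximal tubule markers were higher in males, against 17.8% of all genes called in either direction. The part of all these markers in the lower *Adcy6*, *Pde1a* and *Pde3b* of males was not tested either. Markers of adipose tissue had summed levels up to 98.3 CPM, in a female mutant, with medians from 0.328 to 4.70 CPM, and those of the adrenal gland summed to at most 7.86 CPM.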

How the data were processed

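Kidney RNA of 20 mice was sequenced, 1 library per mouse. Per the methods and labels, the authors used fastp 0.23.2 for trimming and STAR 2.7.10b for alignment (mm10), and the deposited values are raw counts per gene symbol. The counting tool, annotation and strandedness are not given in the sources used here. KBW was computed from the weights in the labels, with the kidney weight taken as given there. The authors describe their KBW as based on 1 kidney per mouse.

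Counts were tested on the whole table with edgeR 4.0.16 in R 4.3.3 (TMM, filterByExpr, quasi-likelihood test, Benjamini-Hochberg adjustment over all genes tested, called at an adjusted p under 0.01), with litter as a covariate, or the 6 groups of sex and litter for all 20 mice. The slope on KBW used the 10 mutants with sex as a covariate. Correlations used log2 CPM (prior count 2) and 100000 permutations, or all 14400 relabellings within sex (576 for 8 mice). All 10 genes are named in every comparison. Of the other cAMP genes, those called in both sexes together are named, *Pkd2* checks the labels, and the 3 genes of highest r with each member were sought. The members and lists were chosen with earlier results of these data known. Positions are from GENCODE M21 on GRCm38, and exonic lengths are unions of its exons. The procedure was tested on simulated data. The alternatives were DESeq2 1.42.0 size factors and Wald test, no litter term, no filter, a minimum of 10 counts in each mouse, 1 fit of all 20 mice, other covariates of the slope, another prior count (0.5), centering on sex and each mouse left out. The relation centered on sex and without the 2 mice farthest from the median KBW was added after seeing the data. Replicates are separate mice.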

Additional observations from a re-analysis of the deposited data

Results flagged for a closer look

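Of 40 sets of 5 mice (10 genes in 4 groups), 1 held a mouse far from the others: *Pde1a* in female mutants, where FM4 had 129.6 CPM and the nearest of the other 4 mice had 86.5. About 1 in 20 such sets would hold one by chance. The gap to the nearest mouse, as a share of the range of the set, was 0.747 for FM4 in *Pde1a*. Next came 0.708 for FM3 in *Adcy3* and 0.685 for FM5 in *Pde4c*, also in female mutants, which were not flagged. FM4 was also the library with the fewest genes detected and the female mutant of lowest KBW, and their part in its *Pde1a* level was not tested. For no gene of the 10 was the sex-by-genotype term called by edgeR.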

How the results depend on the processing

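Of 1450 values of single genes under an alternative, 1312 kept their direction and their side of the threshold, 31 lost a call, 18 gained one and 89 changed sign, and none of the values that changed sign was called. *Pde4c* was below 0 in males, in females and in both sexes together under every alternative run. Among the 10 genes, 1 was called in females with all 20 mice in 1 fit and 1 with DESeq2's Wald test, *Pde4c* each time, beside 4.53% and 6.22% of all genes (0.637% in the reported fit). In both sexes together 3 were called with DESeq2's Wald test and with no litter term, *Prkaca* being added each time, beside 18% and 16.5% of all genes (15.9%). Between the sexes in controls 6 were called with no litter term, *Adcy3*, *Adcy5* and *Prkar1a* being added, beside 21.9% of all genes (17.8%). Between the sexes in mutants 3 were called with DESeq2's Wald test, 2 with no litter term and 3 with all 20 mice in 1 fit, beside 12.2%, 6.39% and 14.8% of all genes (5.42%). With single mice left out, the calls ran from 0 to 1 in males, from 0 to 1 in females, from 1 to 3 in both sexes and from 0 to 3 between the sexes in mutants. The share of all genes called then ran from 1.32% to 13.2% in males and from 0.0206% to 5.93% in females. It ran from 11.6% to 21% in both sexes and from 1.7% to 9.12% between the sexes in mutants. The cause of these shifts was not tested. Fewer mice in a fit also leave fewer degrees of freedom. No member was called for the sex-by-genotype term, for the slope on KBW or for a correlation with KBW under any alternative run. Of all genes, at most 0.0908% were called for that term and 4.03% for the slope, both with DESeq2's Wald test. For the correlations 0 of 14416 genes were called in every setting. The number of permutations or relabellings bounds p from below there, so a call needs several genes at the smallest p together. *Pde1a* between the sexes in controls lost its call with DESeq2 size factors in edgeR (edgeR adjusted p = 0.012), no filter (0.014) and all 20 mice in 1 fit (0.11). It kept the call with DESeq2's Wald test, with at least 10 counts in each mouse and with no litter term. No paired analysis was possible because the labels number no replicates, and mouse numbers here only name the mice.

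Mutants against controls, *Pde3a* in females was −0.013 with no filter and −0.019 with all 20 mice. With single mice left out it ran from −0.43 to 0.32 in females, −0.058 to 0.22 in males and −0.16 to 0.19 in both sexes, while in females *Avpr2* ran from −0.031 to 0.18 and *Adcy3* from −0.26 to 0.17. For the sex-by-genotype term, *Prkaca* was −0.020 with DESeq2 size factors, −0.020 with DESeq2's Wald test, −0.010 with at least 10 counts and −0.0010 with no litter term, and ran from −0.059 to 0.042 with single mice left out. That term ran from −0.032 to 0.38 for *Adcy5*, −0.056 to 0.088 for *Adcy6*, −0.18 to 0.54 for *Pde3a* and −0.22 to 0.085 for *Pde4c*. Between the sexes in mutants, *Pde4c* was −0.016 with no litter term and ran from −0.090 to 0.15, *Pde3a* from −0.64 to 0.082 and *Prkaca* from −0.0097 to 0.072. The slope on KBW with no covariate was −0.21 for *Adcy3*, −0.12 for *Pde3a*, −0.63 for *Pde3b*, 0.0054 for *Prkaca* and −0.086 for *Prkar1a*. With sex as a covariate and single mice left out, the slope ran from −0.64 to 0.060 for *Avpr2*, −0.25 to 0.69 for *Adcy3*, −0.87 to 0.097 for *Adcy5*, −0.38 to 0.73 for *Pde3a* and −0.15 to 0.0057 for *Prkaca*.

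Pearson's r with KBW centered on sex was 0.136 for *Adcy3*, 0.0977 for *Pde3a*, 0.385 for *Pde3b*, −0.269 for *Prkaca* and 0.528 for *Prkar1a*, each of opposite sign to the uncentered r. Without the 2 mice farthest from the median KBW the uncentered r was 0.515 for *Pde1a* and −0.493 for *Prkaca*. Centered on sex and without those 2 mice, r was 0.0190 for *Avpr2*, 0.0835 for *Adcy5*, 0.473 for *Pde3b*, −0.781 for *Prkaca* and 0.345 for *Prkar1a*. With single mice left out the uncentered r ran from −0.444 to 0.108 for *Pde1a*, −0.182 to 0.0636 for *Pde3a* and −0.220 to 0.189 for *Prkaca*. The low counts of *Adcy3*, *Adcy5* and *Pde3a* limit their precision.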
